A study of Rattus norvegicus with 11 samples.

Results

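The sodium pump is described here through its beta subunits Atp1b1 and Atp1b2 and its regulator Fxyd1, also called phospholemman, in the ventricle of ageing rats. Every probe set, a group of short probes combined into 1 reading, was taken if the platform annotation gave it 1 of these gene symbols and no other. This gave 3 genes of 4736 in the table, with 3 probe sets for Atp1b1, 3 for Atp1b2 and 2 for Fxyd1. Affymetrix expression arrays, 11 in all, were prepared from total RNA of ventricles from the inbred rat strain Fischer-344. The old group of 6 arrays came from rats of 22 months and the young group of 5 arrays from rats of 4 months. The labels give no treatment or genotype that sets animals apart within or between the groups. They do not tie arrays to separate animals, and p-values here therefore cover the spread between samples alone, part or all of which may be technical.

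The sodium pump is a membrane ATPase that moves sodium out of the cell and potassium in. Its catalytic alpha subunit needs a beta subunit to fold, to reach the cell surface and to bind potassium normally. In heart muscle the sodium gradient it builds also drives the sodium-calcium exchanger, so pump activity bears on the calcium available for contraction, and the pump is the target of cardiac glycosides. Fxyd1 is a small membrane protein of the FXYD family that inhibits the cardiac pump until it is phosphorylated by protein kinases A or C.

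The regions before the starts of Fxyd1 and Atp1b2 are shown because they are the members with an entry in the promoter table used, and Fxyd1 had the clearest difference between the ages. Each is the 250 bases before the annotated start in RefSeq assembly GRCr8, read 5′ to 3′ on the gene's strand. Fxyd1 lies on the minus strand with the region at chr1:95418581-95418830, and Atp1b2 on the minus strand with the region at chr10:54823709-54823958. Capitals mark matches, on either strand, to the TATA box (TATAAA), the GC box (GGGCGG), the CCAAT box, the core of a muscle promoter element (CATTCC) and the E-box (CANNTG), and no matches overlapped each other.
Fxyd1: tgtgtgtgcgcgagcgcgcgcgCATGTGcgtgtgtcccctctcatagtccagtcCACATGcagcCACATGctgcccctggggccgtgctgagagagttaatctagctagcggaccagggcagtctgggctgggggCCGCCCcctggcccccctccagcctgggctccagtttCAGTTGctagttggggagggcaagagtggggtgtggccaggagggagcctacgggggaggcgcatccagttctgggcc
Atp1b2: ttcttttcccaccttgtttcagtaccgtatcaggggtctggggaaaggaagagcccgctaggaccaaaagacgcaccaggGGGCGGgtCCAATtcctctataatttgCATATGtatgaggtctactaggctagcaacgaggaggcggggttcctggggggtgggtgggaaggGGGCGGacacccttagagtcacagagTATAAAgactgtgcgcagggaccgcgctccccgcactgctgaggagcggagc
The Fxyd1 region held 4 E-box matches and 1 GC box match, the latter on the opposite strand. The Atp1b2 region held 1 TATA box match at 52 bases before the start, with 2 GC box, 1 CCAAT and 1 E-box matches. The muscle element core had 0 matches in both. Of 33469 rat regions of the same kind, 65.5% held an E-box match, 30.5% a GC box, 34% a CCAAT box, 12.9% a TATA box and 12.1% the muscle element core. A match is a stretch of letters and says nothing on binding.

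Fxyd1 was lower in old by both of its probe sets, and neither difference passed the adjustment over the whole table. On rc_AA799645_at the young arrays read 11094.7, 12901.1, 9580.6, 14256.8 and 9587.7 on the deposited intensity scale. The old arrays ran from 5084.1 to 9799.3, with a median of 6790.4. Of the 6 old arrays, 4 lay below every young array, and old replicates 2 and 5 reached the lowest young readings. Old averaged 12.77 ± 0.44 (SD, n = 6) in log2 and young 13.47 ± 0.26 (SD, n = 5). Old minus young was -0.70 ± 0.28 (SE, limma unadjusted p = 0.0229, adjusted p = 0.56). Young was 1.63-fold above old, with an unadjusted 95% interval of 1.08 to 2.46.

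The second Fxyd1 probe set, rc_AA799645_g_at, has the same source sequence in its name and is no independent measurement. The young arrays read 5500.4, 4640.3, 4538.3, 8457.8 and 5905, and the old ones 2154.4 to 5639.4 with a median of 3323.1. Only old replicate 2 entered the young range, and the other 5 old arrays lay below it. Old averaged 11.68 ± 0.56 (SD, n = 6) and young 12.47 ± 0.36 (SD, n = 5), which differ by -0.78 ± 0.31 (SE, limma unadjusted p = 0.0214, adjusted p = 0.56). Over the 11 arrays the probe sets moved together (Pearson's r = 0.929, permutation p = 9e-05, adjusted p = 0.00252 over 28 relations between the 8 probe sets; Spearman's rho = 0.855, permutation p = 0.00138, adjusted p = 0.0386). Without the 2 arrays farthest from the median, r was 0.842. In bulk tissue, fewer cells of a type and less RNA per cell cannot be told apart.

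**Figure D1:**
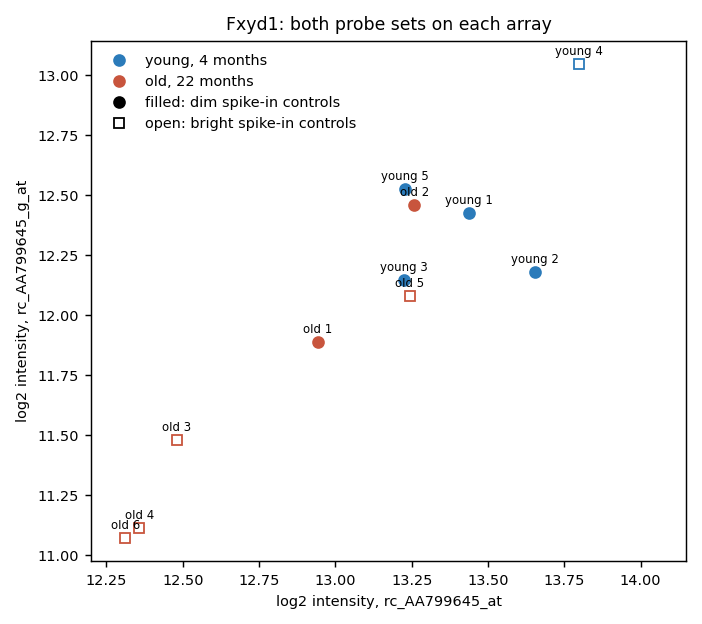
Log2 intensity of the Fxyd1 probe sets rc_AA799645_at (x axis) and rc_AA799645_g_at (y axis) on each array, with old in red and young in blue. Filled circles are arrays with dim and open squares arrays with bright bacterial spike-in controls; old replicates 3, 4 and 6 lie lowest on both axes and young replicate 4 highest.

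The size of both Fxyd1 differences varied with the kind of array and with the setting. The bacterial spike-in controls, transcripts added to the samples, were bright on old replicates 3 to 6 and young replicate 4 and dim on the other 6 arrays, a split set by the widest gap in their mean. Young replicate 4, at a mean log2 of 11.97, lay between the dim arrays, up to 10.20, and the old bright ones, 13.19 to 15.24. No young array reached the old bright level, so the bright class does not compare arrays of like brightness. Within the dim arrays, 2 old and 4 young, Fxyd1 differed by -0.29 on rc_AA799645_at and by -0.15 on rc_AA799645_g_at. Within the bright arrays, 4 old and 1 young, the values were -1.20 and -1.61; with 1 young array there this contrast was not tested. With the class as a block the differences were -0.63 ± 0.31 and -0.69 ± 0.35 (SE, limma adjusted p = 0.938 for both). With limma's array weights they were -0.45 ± 0.23 and -0.48 ± 0.26 (SE, limma adjusted p = 0.499 and 0.521). Old replicates 3 and 4 also had the highest 3′ over 5′ log2 ratios of the GAPDH control, 3.39 and 4.09 against 0.07 to 0.77 elsewhere. Their ratios of the actin control, 1.98 and 1.82, were the highest as well. Those of the hexokinase control, -0.93 and -4.16, were the lowest of all arrays, so the controls did not point the same way. Old replicate 6 had the lowest bright end of the intensity range, with 2% of its probe sets above 4994 against 7040 or more elsewhere. The part of these array features in the Fxyd1 difference was not tested. The unadjusted p stayed under 0.05 in 14 of 23 refitted alternatives for rc_AA799645_at and in 15 of 23 for rc_AA799645_g_at. With spike-in brightness as a covariate the differences were -0.52 ± 0.32 and -0.54 ± 0.35 (SE), with the highest unadjusted p, 0.118 and 0.142. The p was 0.105 and 0.0993 without old replicates 3 and 4, 0.0643 and 0.0579 without the variance trend, 0.0508 and 0.0518 without old replicate 4, and 0.0539 and 0.0661 without young replicate 4 (all limma). Without old replicates 3 and 4 the difference was -0.53 ± 0.31 and -0.59 ± 0.34 (SE, limma adjusted p = 0.886 for both).

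**Figure D2:**
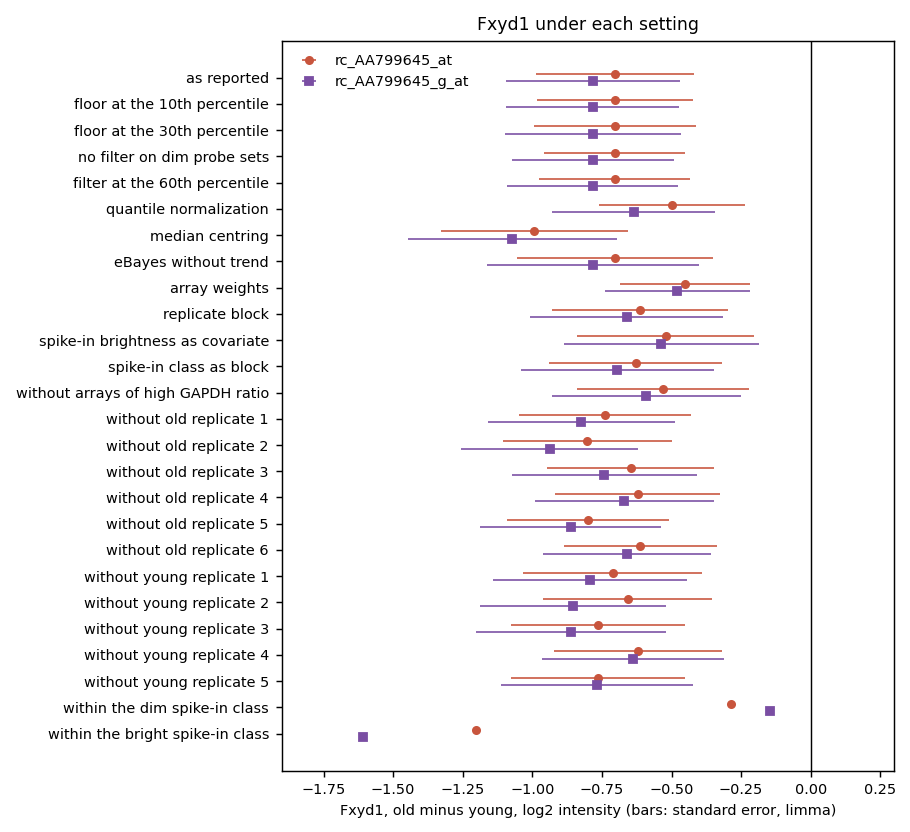
Old minus young difference of Fxyd1 in log2 intensity under each setting, with circles for rc_AA799645_at, squares for rc_AA799645_g_at and bars for the limma standard error; the 2 lowest rows are plain differences of means and have no error. All values are below 0, from -1.61 within the bright to -0.15 within the dim arrays.

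Atp1b1, the main beta subunit of heart muscle, showed no difference between the ages that its spread could separate. Its brightest probe set, rc_AI112173_at, read 6799, 3889.1, 4571.1, 4409.6 and 5512.7 in young. In old it read 2593.5 to 4829.4, with a median of 4539.6. Each of the 6 old arrays was under the young average in log2, yet the groups overlapped and 2 old arrays lay below every young one. Old averaged 11.99 ± 0.35 (SD, n = 6) and young 12.27 ± 0.31 (SD, n = 5), and old minus young was -0.28 ± 0.28 (SE, limma adjusted p = 0.837). The unadjusted 95% interval of old over young ran from 0.55-fold to 1.23-fold, and the difference was -0.15 without old replicate 6 and -0.16 without young replicate 1.

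The other Atp1b1 probe sets did not follow the first. On rc_AI230614_s_at the young arrays were widely spread, at 1399.3, 505.5, 783.7, 272 and 1285.6, and the old ones ran from 424.2 to 811.9 with a median of 679.25. All old readings fell inside the young range, and the difference was -0.18 ± 0.43 (SE, limma adjusted p = 0.94), turning to 0.27 ± 0.44 when the spike-in class was a block. Its correlation with rc_AI112173_at over the 11 arrays was weak (r = 0.302, permutation p = 0.366, adjusted p = 0.666; rho = 0.209, permutation p = 0.54, adjusted p = 0.866), and 0.234 without the 2 farthest arrays. The third, X63375exon_at, was dim, with 3 of 11 arrays at or below the floor of 47.4 used for low readings. It read 31.2, 52.9, 275.2, 58.8 and 27.8 in young and 24.9 to 317.6 in old, and its mean log2 value of 6.34 lay under the filter on dim probe sets, so it was not tested.

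Atp1b2, a beta subunit first known as an adhesion molecule on glia, was dimmer, and its 3 probe sets disagreed from array to array. The brightest, J04629_at, read 104.4, 758.4, 650.5, 300.9 and 278.6 in young and 183.2 to 668.6 in old, with an old median of 372.95. The groups overlapped fully apart from young replicates 1 and 2 at the ends of the range. Old averaged 8.47 ± 0.85 (SD, n = 6) and young 8.39 ± 1.14 (SD, n = 5). The difference of 0.075 ± 0.57 (SE, limma adjusted p = 0.979) had an unadjusted 95% interval of 0.463-fold to 2.40-fold for old over young. It turned to -0.35 ± 0.55 without young replicate 1. Relative to the median of all tested probe sets it was 0.085 as reported and under median centring, and -0.050 under quantile normalization.

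On D90048exon_at, Atp1b2 read 77.3, 137.8, 320.6, 84.3 and 120.5 in young and 98.9 to 372.1 in old. Of the old arrays, 4 of 6 lay above the young mean in log2, and the difference was 0.56 ± 0.59 (SE, limma adjusted p = 0.846). It was 0.37 without old replicate 2 or 3 and 0.90 without young replicate 3. On D90048exon_g_at the readings spanned 26.4-fold, from 53 in old replicate 3 to 1401.8 in old replicate 6. The difference of 0.35 ± 0.78 (SE, limma adjusted p = 0.936) turned to -0.15 ± 0.74 without old replicate 6. The pair of D90048 probe sets, named for 1 source sequence, had r = -0.418 (permutation p = 0.198, adjusted p = 0.666) and rho = -0.527 (permutation p = 0.101, adjusted p = 0.568) over the 11 arrays, with -0.263 after leaving out the 2 farthest. Age differences within such wide intervals were not detectable with these arrays.

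**Figure D3:**
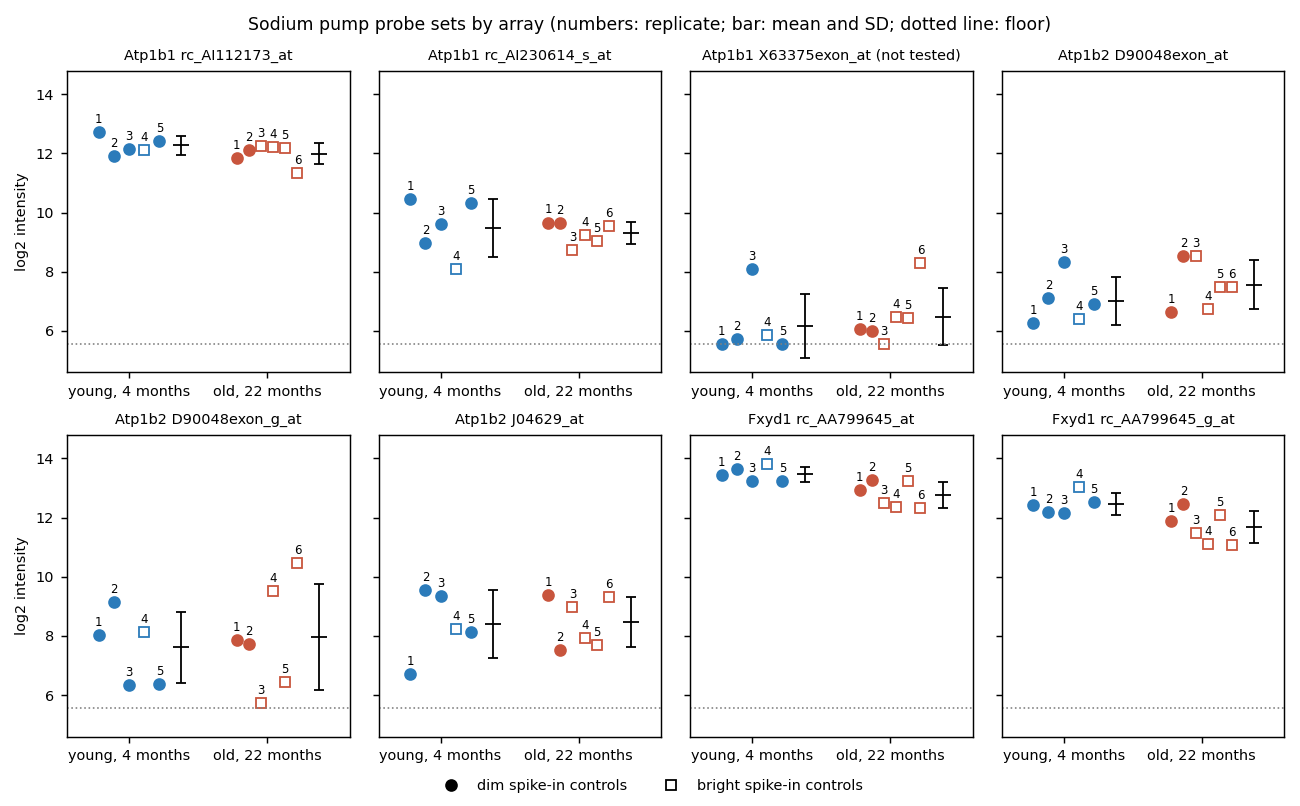
Log2 intensity (y axis) of the 8 probe sets of Atp1b1, Atp1b2 and Fxyd1 on each young (blue) and old (red) array, with replicate numbers, filled circles for dim and open squares for bright spike-in controls, mean and SD as bars, and the floor as a dotted line. The Fxyd1 panels show most old arrays under the young ones, while the Atp1b1 and Atp1b2 panels overlap.

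Set against the table, 2 of the 7 tested probe sets of these genes, both of Fxyd1, were lower in old at an unadjusted p under 0.05, where 4.12% of all 5244 tested probe sets were. At that p, 0 of 7 were higher in old, against 3.39%, and 2 of 7 went either way, against 7.51%. After Benjamini-Hochberg adjustment over the table, limma called 0 of 7, against 0% of all. None of the 8 probe sets had groups that did not overlap, against 0.42% of those tested that were lower and 0.553% higher in old without overlap. With 1 pair of probe sets from a single source sequence behind the count, it stands for 1 gene.

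The balance between these genes was followed as the log2 difference of a pair of probe sets on the same array, using the brightest tested probe set of each. Such a difference can show unequal change between the ages and not which transcript is more abundant. Atp1b1 minus Fxyd1 averaged -0.78 ± 0.46 over the 6 old and -1.20 ± 0.49 over the 5 young arrays (SD). Each old array was above the young average, but only old replicates 3 and 4 lay above every young array. The shift of 0.42 did not pass (exact two-sided permutation p = 0.162 over all splits of the arrays, adjusted p = 0.435 over 3 pairs; the smallest possible p was 0.00216). Without old replicates 3 and 4 the shift was 0.13. Atp1b2 minus Fxyd1 shifted by 0.78, with 4 of 6 old arrays above the young mean (exact permutation p = 0.29, adjusted p = 0.435). That shift was 0.36 without young replicate 1, 0.52 without old replicate 6 and 0.33 under quantile normalization. Atp1b1 minus Atp1b2 averaged 3.52 ± 1.11 over the old and 3.88 ± 1.44 over the young arrays (SD; shift -0.35, exact permutation p = 0.654, adjusted p = 0.654), and turned to 0.18 without young replicate 1, the highest array at 6.03. Over all 16 pairs of tested probe sets from different genes, a comparison added after the values were seen, the smallest adjusted p was 0.381 (exact permutation).

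**Figure D4:**
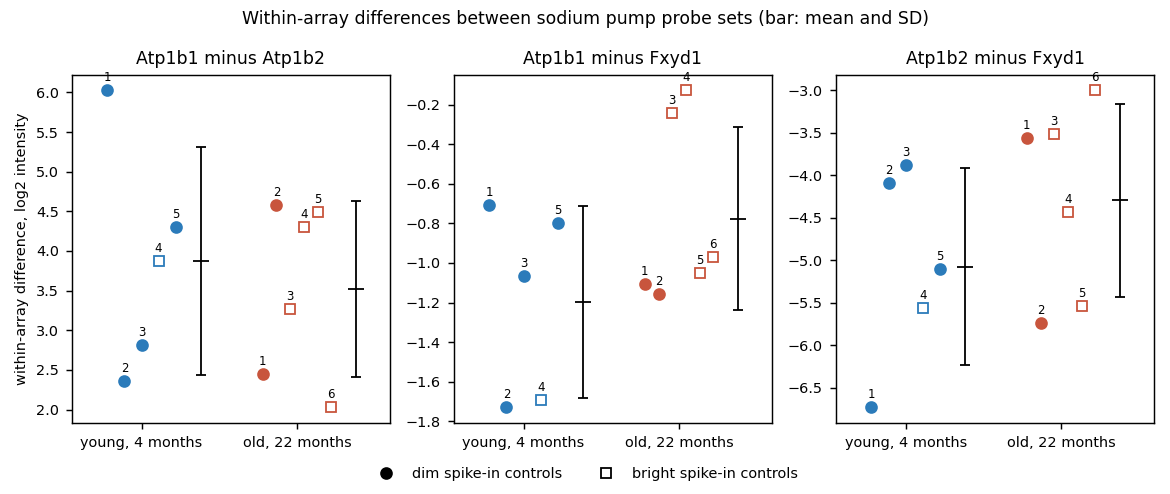
Within-array log2 differences between the brightest tested probe sets of Atp1b1, Atp1b2 and Fxyd1 (y axis; each panel has its own scale) for young (blue) and old (red) arrays, with replicate numbers and mean and SD as bars. Old and young overlap in all 3 panels, and old replicates 3 and 4 stand highest for Atp1b1 minus Fxyd1.

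Other subunits and regulators of the pump gave no call. Of 6 tested genes of the pump list, the 3 described above included, 4 were lower and 2 higher in old, with a median difference of -0.16 against -0.0053 over all 3206 tested genes; 1, Fxyd1, had an unadjusted p under 0.05 and 0 passed the adjustment. Atp1b3, the third beta subunit, differed by 0.41 ± 0.44 (SE, limma adjusted p = 0.848). Fxyd2, the gamma subunit known from kidney, differed by -0.044 ± 0.60, and Fxyd4, a pump regulator of kidney and colon, by -0.44 ± 0.60, with old replicate 6 at the floor. Atp1a4, the alpha subunit of sperm, was at or below the floor on 8 of 11 arrays and was not tested.

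Sodium channel genes, which carry sodium into cells, went both ways, with 4 of 8 tested genes lower and 4 higher in old, a median difference of -0.084 and 0 with an unadjusted p under 0.05. Scn9a, a channel of sensory neurons, had the highest difference of the 8 at 0.86 ± 0.66 (SE) and Scn8a, a neuronal channel, the lowest at -0.66 ± 0.67. Scn4a, the channel of skeletal muscle, differed by 0.52 ± 0.73, while its other tested probe set, D87922exon_at, stood at -0.97 ± 0.66. Scn7a, an atypical sodium-sensing channel, differed by -0.43 ± 0.51, while its other tested probe set, rc_AA925248_at, stood at 0.33 ± 0.60. Scn3a, a channel of the embryonic brain, differed by -0.19 ± 0.61. Scn11a, of pain-sensing neurons, differed by 0.019 ± 0.68. Scnn1a and Scnn1g, subunits of the epithelial channel, differed by 0.42 ± 0.61 and -0.36 ± 0.68.

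Exchangers and cotransporters, which use or share the sodium gradient or move its partner ions, were lower in old in 8 of 12 tested genes, with a median difference of -0.22, where 50.6% of all tested probe sets were lower. At an unadjusted p under 0.05 there were 2 of 12, 1 in each direction, against 7.51% of all, and 0 passed the adjustment. When the mean of all tested probe sets of a gene was used, 6 of 12 were lower and the median was -0.046. Slc4a3, the chloride-bicarbonate exchanger of heart and brain, averaged 9.92 ± 0.60 over the old and 10.81 ± 0.43 over the young arrays (SD). Old minus young was -0.89 ± 0.35 (SE, limma unadjusted p = 0.02, adjusted p = 0.56), and 6 of 6 old arrays were under the young average. Slc4a2, a widely expressed exchanger of the same family, went the other way by 1.68 ± 0.61 (SE, limma unadjusted p = 0.0129, adjusted p = 0.56). On that probe set 1 young array was at the floor. A second probe set of Slc4a2, J05166_at, differed by 0.073 and was too dim to be tested. Slc8a1, the cardiac sodium-calcium exchanger, differed by -0.082 ± 0.38 on its brightest probe set, by 0.80 ± 0.52 on S67769_s_at and by -0.23 ± 0.55 on U04934_s_at. Its brain and muscle relatives Slc8a2 and Slc8a3 differed by -0.74 ± 0.54 and -0.64 ± 0.60.

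Among the rest of these carriers, the bicarbonate carriers Slc4a1, Slc4a4 and Slc4a7 differed by 0.40 ± 0.40, -0.74 ± 0.75 and 0.17 ± 0.39. Another probe set of Slc4a1, rc_AA866414_at, stood at -1.10 ± 0.69, with 3 old and 0 young arrays at the floor. The third Slc4a1 probe set, rc_AA875035_at, stood at 0.36 ± 0.68, with 1 old and 1 young array at the floor. The chloride cotransporters Slc12a2 and Slc12a4 differed by -0.36 ± 0.71 and -0.68 ± 0.49, with rc_AI639049_s_at of Slc12a4 at 0.74 ± 0.62. The glucose carrier Slc5a1 differed by -0.079 ± 0.61 and the taurine carrier Slc6a6 by 0.043 ± 0.77 (all SE). None of these 7 had an unadjusted p under 0.05.

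**Figure D5:**
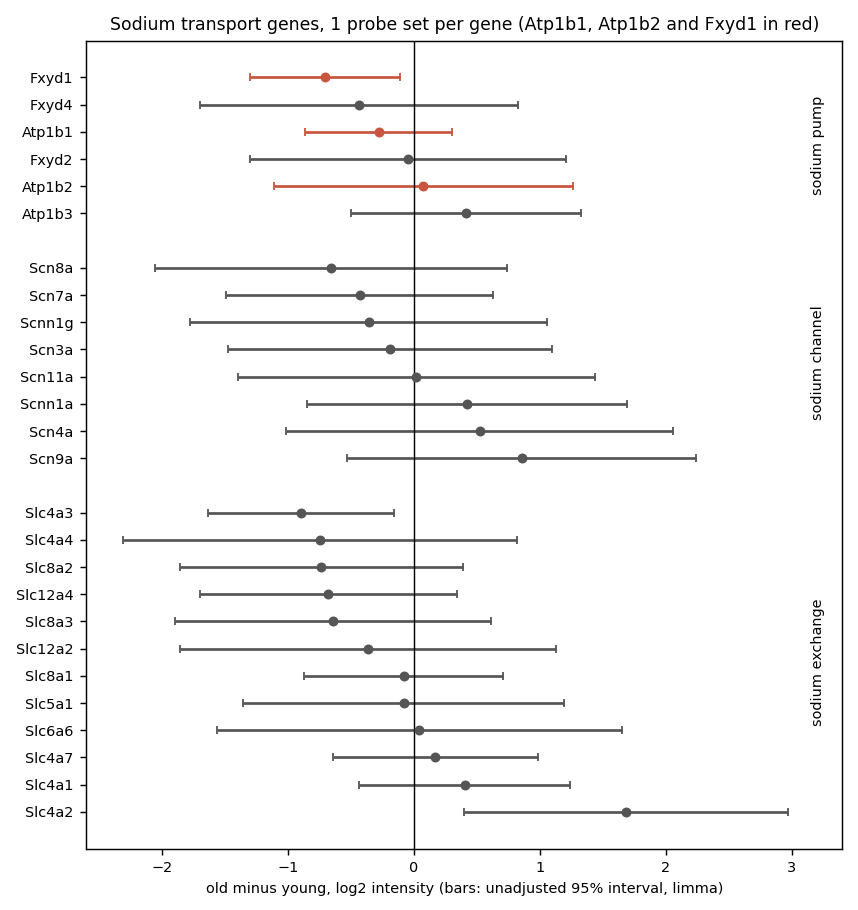
Old minus young difference in log2 intensity (x axis) with unadjusted 95% limma intervals for the 26 tested genes of the sodium pump, sodium channel and sodium exchange lists, 1 probe set per gene, with Atp1b1, Atp1b2 and Fxyd1 in red. The intervals of Fxyd1, Slc4a3 and Slc4a2 leave out 0 and the others span it.

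Calcium and proton pumps, relatives of the sodium pump, had 4 of 6 tested genes higher in old, a median of 0.12 and 0 with an unadjusted p under 0.05. The plasma membrane calcium pumps Atp2b4, Atp2b1 and Atp2b3 differed by 0.66 ± 0.69, 0.30 ± 0.56 and -0.67 ± 0.68 (SE). Atp2a3, a calcium pump of the endoplasmic reticulum, differed by -0.31 ± 0.45 and Atp4a, the gastric proton pump, by 0.23 ± 0.43. Atp2a2, the calcium pump of the sarcoplasmic reticulum in heart muscle, differed by 0.016 ± 0.36 on its brightest probe set and by -0.46 as the mean of 4. The list of kinases, phosphatases, scaffolds and hormone receptors that act on the pump or on ion channels had 16 of 22 tested genes lower in old, with a median of -0.27, beside the same 50.6%. Of the 22, 2 had an unadjusted p under 0.05, a share near the 7.51% of all probe sets, and 0 passed the adjustment. Ppp1ca, a catalytic subunit of protein phosphatase 1, differed by -1.11 ± 0.45 (SE, limma adjusted p = 0.567), with 4 of 6 old arrays below the young mean. Cav1, the caveolin of endothelium and fat, differed by -2.07 ± 0.93 (SE, limma adjusted p = 0.639), and Src, a tyrosine kinase, by -1.16 ± 0.62. On the other side, Hsd11b1, which regenerates active glucocorticoid, differed by 0.50 ± 0.39, Ppp1cb, another phosphatase 1 subunit, by 0.54 ± 0.44, and Ppp1r1a, a phosphatase 1 inhibitor, by 0.23 ± 0.40.

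Cell type markers were read beside the Fxyd1 difference. Each sum below is the log2 of the added linear intensities of a list and weighs its brightest probe sets most. Heart muscle markers, 9 tested of 11 listed, had no array at the floor. Their sums were 18.29 to 18.93 in old and 18.28 to 18.83 in young. Of these 9, 6 were lower and 3 higher in old, with a median of -0.25. All 3 endothelial markers tested of 6 were lower in old, with sums of 8.44 to 10.76 against 10.47 to 10.93. The low end came from old replicates 3 and 4, at 8.44 and 8.87, the arrays with the highest GAPDH ratios. The other old arrays had sums of 10.30 to 10.76, most of them inside the young range. Fat markers were higher in 3 of 4 (sums of 12.25 to 12.63, mean 12.40, against at most 12.48, mean 12.29), fast skeletal muscle in 3 of 3 (9.41 to 11.78 against 8.83 to 10.16) and smooth muscle in 4 of 4 (9.66 to 14.05 against 9.41 to 11.52). Atrial markers were higher in 3 of 3 (13.27 to 16.57 against 11.88 to 15.13) and nerve and glia markers in 4 of 7 (11.06 to 12.64 against 10.94 to 11.76). Fibroblast markers were lower in 3 of 5 (14.53 to 15.97 against 14.78 to 16.26), macrophage markers in 1 of 2 (9.60 to 10.54 against 9.21 to 10.76) and blood markers in 0 of 2 (13.68 to 17.43 against 10.24 to 16.15). Of the 42 marker genes tested, 5 had arrays at the floor (Nefh, Syp, Myl4, Kdr and Cnn1) and 0 passed the adjustment. An unadjusted p under 0.05 was found for 5 of the 42, against 7.51% of all tested probe sets. They were Cfd at 1.69 ± 0.61, Nppa at 1.18 ± 0.49, Syp at 1.43 ± 0.66, Nefh at -1.37 ± 0.62 and Ckm at -0.67 ± 0.30 (old minus young, SE).

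Over the 11 arrays the summed fat markers ran against Fxyd1 on rc_AA799645_at (r = -0.747, permutation p = 0.00792, adjusted p = 0.0792 over 10 lists; rho = -0.745, permutation p = 0.0113, adjusted p = 0.113), a relation that did not pass the adjustment. It was -0.686 with the group means removed and -0.810 without the 2 arrays farthest from the median fat sum. The brightest fat probe set was that of Lep, the leptin gene, which differed by -0.39 ± 0.28 (SE) against the direction of the other 3. For the endothelial sum r was 0.615 (permutation p = 0.0499, adjusted p = 0.248; rho = 0.345, permutation p = 0.300, adjusted p = 0.750), and -0.061 without the 2 farthest arrays, so it rested on them. These were old replicates 3 and 4, with the lowest endothelial sums, 8.44 and 8.87. The other 8 lists had adjusted permutation p-values of 0.248 or more. The part of any of these markers in the Fxyd1 difference was not tested.

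The genes most like each member were taken by Pearson's r over the 11 arrays after each group's mean was removed, among tested probe sets with 1 symbol. Nearest to Fxyd1 were Mrpl52 (r = 0.937), Paqr7 (r = 0.920), Ap2b1 (r = 0.893) and Itgb3 (r = 0.882). With the group means kept, r was 0.936, 0.882, 0.743 and 0.776 over all arrays, and 0.859, 0.795, 0.612 and 0.772 without the 2 arrays farthest from the Fxyd1 median. Nearest to Atp1b1 were Rpl21 (r = 0.941), Ipo7 (r = 0.933), Apex1 (r = 0.930) and Srsf2 (r = 0.909), with 0.591 to 0.818 when the group means were kept and 0.280 to 0.524 when the 2 farthest arrays were also left out. Nearest to Atp1b2 were Rab5a (r = 0.854), Trappc3 (r = 0.843), Icam1 (r = 0.796) and Cyp1b1 (r = 0.794). These values are the highest of 4307 or 4308 candidate probe sets and are descriptions only.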

How the data were processed

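The deposited table holds 1 linear intensity per probe set and array, 8799 probe sets in all, from 0.2 to 307755.8. The labels name total RNA as the material of the samples. The software behind the intensities is not given in the sources used here. A 2% trimmed mean of each array lay between 500.5 and 501, so the deposited values carry a common scale and differences are relative to the other transcripts of an array. Here, values under the 20th percentile, 47.4, were set to it and all were put on the log2 scale. The 59 controls and the probe sets with a mean log2 value under the 40th percentile were left out, which left 5244.

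The age groups were fitted with limma 3.58.1 (R 4.3.3; lmFit, eBayes with trend) and p-values adjusted by Benjamini-Hochberg over the 5244, with a threshold of 0.05. Differences are old minus young. A gene with several tested probe sets is represented by the brightest one in list counts. Within-array differences were tested by exact two-sided permutation over all splits, and correlations by 100000 permutations. The script was tested on simulated data. The number of arrays limits the precision: the median standard error was 0.56. Symbols came from GEO's platform annotation, where 7006 probe sets had a single symbol, 308 had more than 1 and 1426 had no symbol. The sequences are from RefSeq, where 2 of the 3 members had an entry. The members and the lists were chosen with earlier results of these data known. Named genes were every tested gene of the pump, channel and exchange lists, in the other lists up to 3 per direction by smallest p, and 4 most like each member; Atp2a2, marker genes and second probe sets named beside them were chosen after their values were seen. Other alpha subunits and the cardiac sodium channel were not analysed here, so the balance was taken between the beta subunits and Fxyd1. The alternatives were other floors, filters and scalings, no trend, array weights, a replicate block, spike-in brightness and leaving out arrays.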

Additional observations from a re-analysis of the deposited data

Results flagged for a closer look

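Both readings that stood apart after flooring belong to X63375exon_at, the dim and untested probe set of Atp1b1. Old replicate 6 read 8.31 in log2 intensity, with the next old array at 6.48 and the lowest set to the floor, 5.57. Young replicate 3 read 8.10, with the next young array at 5.88 and the lowest also set to 5.57. In each case the gap to the nearest array was too large a share of the group's range by Dixon's criterion, applied to floored values. The deposited readings of the lowest arrays lay below the floor. Flooring therefore narrowed both ranges and raised the share of the gap. Whether either reading stands apart on the deposited values was not tested. Of 22 groups examined 2 stood apart, and chance alone marks about 1 in 20. Neither array was high for the brightest Atp1b1 probe set, where old replicate 6 was the lowest array of all at 11.34.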

How the results depend on the processing

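Fxyd1 (both probe sets), rc_AI112173_at of Atp1b1 and D90048exon_at of Atp1b2 kept their direction under every alternative run, and none passed the adjustment under any. Leaving out 1 array at a time gave -0.80 to -0.61 for rc_AA799645_at and -0.94 to -0.64 for rc_AA799645_g_at, -0.37 to -0.15 for rc_AI112173_at and 0.37 to 0.90 for D90048exon_at. Quantile normalization moved the median of all tested probe sets from -0.01 to -0.12 and median centring to -0.30; relative to it, Fxyd1 stood at -0.38 and -0.52 under the first and at -0.69 and -0.77 under the second, against -0.69 and -0.77 as reported. Directions turned as follows, and the cause was not tested. J04629_at of Atp1b2 was -0.21 with median centring, which shifts all probe sets alike and left it at 0.085 relative to their median, as reported. It was -0.17 with quantile normalization, or -0.050 relative to the median, -0.048 with spike-in brightness as a covariate, and -0.35 to 0.37 when 1 array was left out. D90048exon_g_at was -0.14 with the covariate, -0.089 within the bright arrays and -0.15 to 0.80 with 1 array left out. For rc_AI230614_s_at of Atp1b1 the values were 0.19 with the covariate, 0.27 with the class as a block, 1.05 within the bright arrays (an alternative added after the data were seen, as was the dim class) and -0.53 to 0.056 with 1 array left out. Atp1b1 minus Atp1b2 was 0.061 with quantile normalization and -0.73 to 0.18 with 1 array left out. The count past an adjusted p of 0.05 was 0 to 2 with 1 array left out, 2 arising without old replicate 5 and none for the genes described. The count past an unadjusted p of 0.05, 394 as reported, was 258 with the covariate, 268 with the class as a block, 509 with median centring and 561 with array weights, all over the same 5244.

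The replicate block, over the 5 numbers that both groups share, gave -0.61 ± 0.32 and -0.66 ± 0.35 (SE, limma adjusted p = 0.68 and 0.685) for Fxyd1, and turned D90048exon_g_at to -0.15 and J04629_at to -0.094, the same values as without old replicate 6, which that fit leaves out; it changed no adjusted call. The labels do not say what the numbers mark. Deviations of same-numbered arrays correlated by -0.251 to 0.246, and 1 of 5 old arrays correlated best with its own number. These 5 values came without a test and cannot show whether the arrays were paired.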
